A study of Rattus norvegicus with 13 samples.

Results

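The 14-3-3 proteins are encoded by a small gene family whose rows Ywhaz, Ywhah, Ywhab, Ywhag, Ywhae and Ywhaq (14-3-3 zeta, eta, beta, gamma, epsilon and theta) were taken by name from 1 table of hypothalamic RNA-seq values. These 6 genes, each with 1 row, stand among 17366 rows. The family was selected on the FPKM of Ywhaz by diet, already known to be lower on fructose, so the values of Ywhaz by diet, its test included, are given as a description that supports nothing. Sfn, which encodes 14-3-3 sigma, was not analysed here.

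Whole hypothalamus was taken from 13 rats, 6 raised on a diet with 55% fructose and 7 raised on standard chow with 0.30% fructose. Both diets began on postnatal day 25, shortly after weaning, and the rats were housed in pairs. They went without food overnight from day 79, and on day 80 each received glucose (2 g per kg) or saline into the peritoneal cavity 1 h before it was killed. Which rat received which, and the strain, sex and cage mates of each, are unstated in the sources used here, and no transgene is named. The unit is FPKM, which divides the fragments of a gene by its transcript length and by the number mapped in the library, so levels of different genes can be set side by side per length.

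14-3-3 proteins form cup-shaped dimers that grip phosphorylated serine or threonine in other proteins and thereby hold them in the cytoplasm, block or open their active sites, or join them to partners. They are among the most abundant soluble proteins of brain, where their clients include protein kinases, the cell death protein BAD, FOXO transcription factors and ion channels. In brain the family is known as an activator of tyrosine and tryptophan hydroxylase, the enzymes that open dopamine and serotonin synthesis. The Ywha gene symbols come from that activity.

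Total FPKM ranged from 556902 to 608058 per rat, no columns were identical, and Pearson r between rats across genes, which are not independent replicates, lay between 0.970 and 0.991. Of 17 hypothalamic markers, which include the orexin gene Hcrt and the melanin-concentrating hormone gene Pmch, 0 were at 0 in all rats. Of the 16 tested 0 were called between diets, beside 3.94% of all genes tested. At an unadjusted p under 0.05 (limma) stood 2, beside 19.2% of all genes. These 2 went opposite ways, with Pmch lower and the marker Hdc higher on fructose. The mean log2 level of the 16 ran from 2.81 to 4.97 in fructose rats and from 3.27 to 5.12 in chow rats. Pmch averaged 3494 FPKM in fructose rats and 5107 FPKM in chow rats. Hdc averaged 11.3 FPKM in fructose rats and 5.57 FPKM in chow rats. Hcrt averaged 527 FPKM in fructose rats and 700.4 FPKM in chow rats.

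The stretches of 250 bases before the start site of 3 members are shown because Ywhah and Ywhab were lower on fructose while Ywhaq was the member with the smallest difference. They come from RefSeq promoters on the GRCr8 build, which held 5 of the 6 members, without Ywhaz. They lie at chr14:81930203-81930452 on the minus strand (Ywhah), chr3:173078821-173079070 on the plus strand (Ywhab) and chr6:46694876-46695125 on the minus strand (Ywhaq). Capitals mark every match, on either strand, to the core of the cAMP response element (TGACG or CGTCA) and to the GC box (GGGCGG or CCGCCC).
Ywhah: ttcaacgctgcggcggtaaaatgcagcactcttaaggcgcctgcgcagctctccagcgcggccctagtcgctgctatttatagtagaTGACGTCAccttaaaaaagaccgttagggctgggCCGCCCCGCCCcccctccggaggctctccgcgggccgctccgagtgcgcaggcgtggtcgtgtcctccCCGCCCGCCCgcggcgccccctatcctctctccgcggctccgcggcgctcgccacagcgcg
Ywhab: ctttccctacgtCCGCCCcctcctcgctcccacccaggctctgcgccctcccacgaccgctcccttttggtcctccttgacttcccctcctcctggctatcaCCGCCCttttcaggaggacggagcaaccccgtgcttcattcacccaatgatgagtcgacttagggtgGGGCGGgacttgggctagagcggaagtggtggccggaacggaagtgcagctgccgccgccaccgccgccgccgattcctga
Ywhaq: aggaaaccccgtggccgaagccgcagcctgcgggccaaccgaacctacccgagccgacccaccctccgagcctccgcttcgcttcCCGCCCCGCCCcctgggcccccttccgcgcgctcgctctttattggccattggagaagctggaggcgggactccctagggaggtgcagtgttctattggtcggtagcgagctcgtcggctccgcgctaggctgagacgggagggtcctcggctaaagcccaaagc

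The Ywhah stretch held the full cAMP response element, TGACGTCA, which is its own reverse complement and contains the core on each strand, 155 bases before the start site. That motif was in 1 of the 5 members with a sequence and in 1.59% of all 33469 promoters of the same length. The core was in 3 of the 5 members, Ywhah, Ywhag and Ywhae, and in 18.2% of all promoters. The GC box was in 5 of the 5 and in 30.5% of all promoters, and G and C made up 65.2% to 69.2% of the bases in the members, where the median promoter had 51.2%. These matches describe letters in the window and say nothing of which factors bind there.

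Every member was abundant. By mean FPKM over the 13 rats, Ywhah stood 39th among the 17366 rows, Ywhaz 81st, Ywhae 90th, Ywhag 180th, Ywhab 209th and Ywhaq 220th. On fructose the order of mean FPKM was Ywhah, Ywhae, Ywhaz, Ywhag, Ywhaq and Ywhab, and on chow it was Ywhah, Ywhaz, Ywhae, Ywhag, Ywhab and Ywhaq. Thus 2 pairs of neighbours changed places. In fructose rats Ywhae was above Ywhaz in 3 of 6 animals and their ranges overlapped, whereas in chow rats Ywhaz was above Ywhae in 7 of 7 and the ranges were apart. Ywhaq was above Ywhab in 6 of 6 fructose rats, and Ywhab was above Ywhaq in 7 of 7 chow rats. The ranges of these last 2 genes overlapped within each diet, as did those of Ywhag and the gene next below it.

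Of the 6 members 3 fell on fructose in the fit across all 11837 genes tested (limma, adjusted p under 0.05), Ywhaz, Ywhah and Ywhab, 0 rose, and Ywhag, Ywhae and Ywhaq did not pass. Of all genes tested 2.27% were called lower, 1.66% higher and 3.94% in either direction. At an unadjusted p under 0.05 (limma) stood 4 of the 6 members, Ywhaz, Ywhah, Ywhab and Ywhag, beside 19.2% of all genes tested. Leaving aside Ywhaz, whose fall was known beforehand, 2 of the other 5 members fell. The log2 fold change, fructose minus chow, was below 0 in 5 of the 6 members, with a median of -0.16, beside a median of 0.00085 over all genes tested, of which 49.7% were below 0. Ywhaz, on which the family was selected, is included in this count and in the median of the members. All 6 passed the filter of a mean of at least 0.5 FPKM by a wide margin in both diets. Markers of the thalamus were lower on fructose too (13 of 18 tested). With their level as a covariate 0 of the 6 members were called, with 2 at an unadjusted p under 0.05 (limma). In that fit only 0.253% of all genes were called, beside 3.94% without the covariate. In whole tissue, fewer cells of a type and less RNA per cell cannot be told apart.

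Ywhaz encodes the zeta protein, known as a partner of BAD. It stood at 690, 602, 704, 647, 733 and 612 FPKM in fructose replicates 1 to 6, against 780.0, 961, 780, 863, 851, 833 and 939 FPKM in chow replicates 1 to 7. The highest fructose rat stood below the lowest chow rat, a pattern that 0.727% of all genes tested showed in this direction. The means were 665 ± 52.5 FPKM on fructose (SD, n = 6) and 858 ± 70.7 FPKM on chow (SD, n = 7), a change of -22.5%. On the log2 scale the difference was -0.37 ± 0.06 (SE throughout for such differences, limma adjusted p = 0.0112). The call was kept in 13 of 13 fits with 1 rat left out.

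Ywhah encodes the eta protein, the member with the highest level here. It stood at 1047, 885, 989, 967, 1111 and 858 FPKM in fructose replicates 1 to 6, against 1034, 1336, 1080, 1231, 1245, 1271 and 1419 FPKM in chow replicates 1 to 7. The diets overlapped, since 4 of 6 fructose rats stood below every chow rat and chow replicates 1 and 3 lay within the range of the fructose rats. The means were 976 ± 95.6 FPKM on fructose (SD, n = 6) and 1231 ± 135 FPKM on chow (SD, n = 7), a log2 fold change of -0.33 ± 0.08 (limma adjusted p = 0.0380, exact two-sided permutation p = 0.00524, unadjusted). With 1 rat left out the call was kept in 4 of 13 fits, those that omitted replicates 1 or 5 of fructose or 1 or 3 of chow, with an adjusted p between 0.0114 and 0.0931 over the 13.

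Ywhab encodes the beta protein, which binds CDC25 phosphatases. It stood at 432, 417, 398, 407, 426 and 388 FPKM in fructose replicates 1 to 6, against 469, 461, 460, 474, 455, 460 and 440.2 FPKM in chow replicates 1 to 7. The diets did not overlap, with 6 of 6 fructose rats below every chow rat, a pattern that 0.727% of all genes tested showed. The fall was nevertheless smaller than that of Ywhah in FPKM and in percent. The means were 411 ± 16.7 FPKM on fructose (SD, n = 6) and 459.9 ± 10.7 FPKM on chow (SD, n = 7), a change of -10.6% and a log2 fold change of -0.16 ± 0.04 (limma adjusted p = 0.0346). The exact two-sided permutation p was 0.000583, unadjusted and the smallest that the 1716 splits of the rats can give. The call was kept in 4 of 13 fits with 1 rat left out, those that omitted replicates 1 or 5 of fructose or 1 or 6 of chow, and the adjusted p over the 13 lay between 0.0272 and 0.0847.

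**Figure D1:**
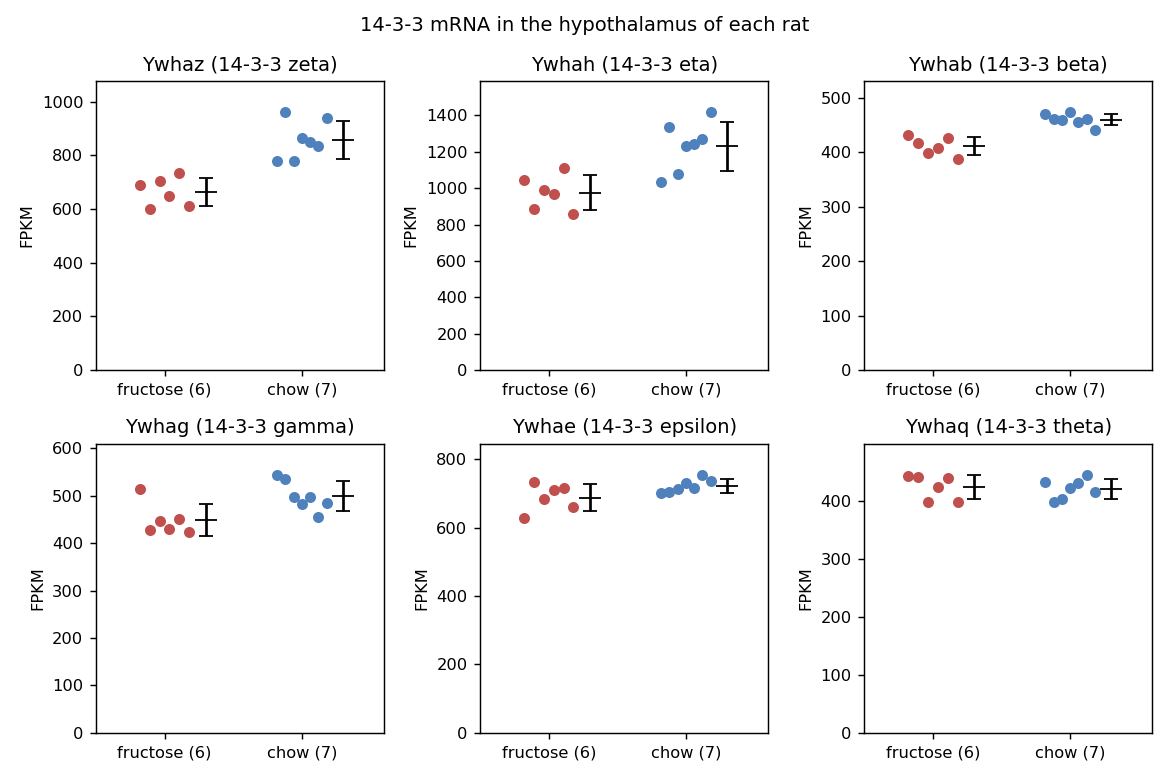
FPKM of each 14-3-3 gene in every rat, with the 6 fructose rats to the left of the 7 chow rats; points are rats and the bar beside them is the mean with its SD. For Ywhaz and Ywhab no fructose point reaches a chow point, for Ywhah, Ywhag and Ywhae the diets overlap in part, and for Ywhaq they share 1 range.

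Ywhag encodes the gamma protein, whose gene in humans is mutated in a childhood epilepsy. It stood at 514, 427, 446, 431, 451 and 424 FPKM in fructose replicates 1 to 6, against 544, 536, 498, 482, 497, 455 and 484 FPKM in chow replicates 1 to 7. Fructose replicate 1 stood among the chow rats, and the other 5 fructose rats lay below all of them. The log2 fold change was -0.16 ± 0.06, close to that of Ywhab, and did not pass (limma adjusted p = 0.132, exact permutation p = 0.0186, unadjusted). Without fructose replicate 1 it was -0.20 and passed (limma adjusted p = 0.0437).

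Ywhae encodes the epsilon protein, which binds NDEL1 and serves neuronal migration in mice. It ranged from 627 to 732 FPKM with a median of 696 FPKM in fructose rats, and from 699 to 754 FPKM with a median of 717 FPKM in chow rats. Fructose replicates 1, 3 and 6 lay below all chow rats and the other 3 lay within the chow range. The difference did not pass (log2 fold change -0.072 ± 0.044, limma adjusted p = 0.411, exact permutation p = 0.0618, unadjusted).

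Ywhaq encodes the theta protein, also called tau. It stood at 443, 442, 399, 424, 440.0 and 399 FPKM in fructose replicates 1 to 6, against 432, 398, 403, 422, 431, 446 and 415 FPKM in chow replicates 1 to 7. The rats of both diets shared 1 range, with 0 fructose rats below all chow rats and 0 above. The log2 fold change was 0.011 ± 0.044 (limma adjusted p = 0.927).

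**Figure D2:**
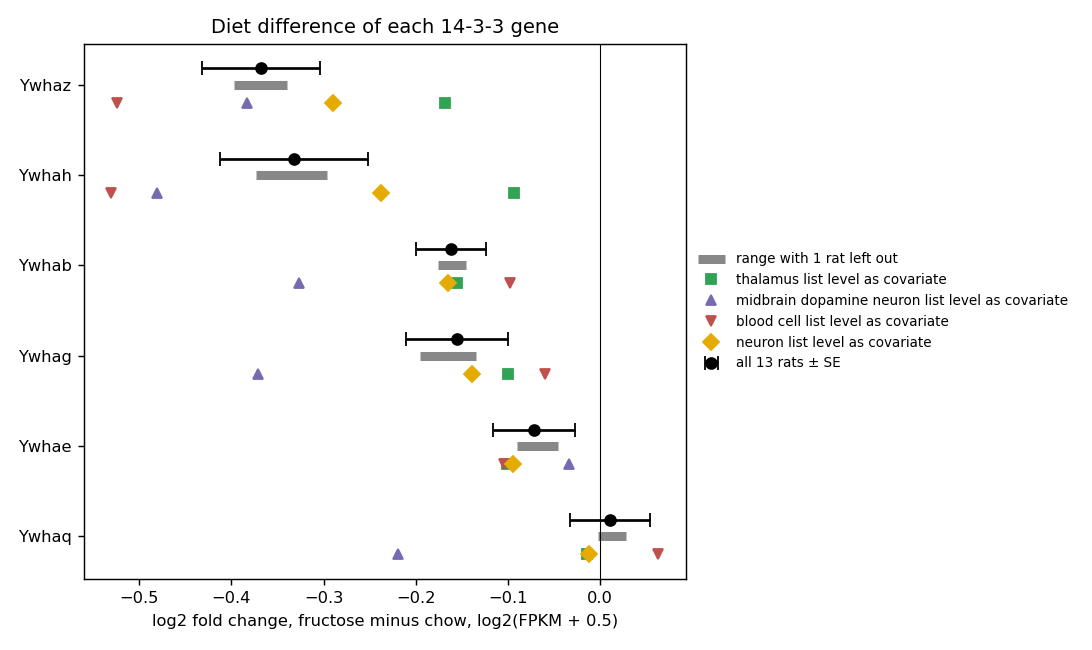
Log2 fold change of each 14-3-3 gene, fructose minus chow, on the log2(FPKM + 0.5) scale; black points are the fit of all 13 rats with the SE, grey bars the range with 1 rat left out, and coloured marks the fits with the level of 1 marker list as a covariate. Ywhaz (-0.37) and Ywhah (-0.33) lie farthest left, Ywhab and Ywhag near -0.16, and Ywhaq at 0.011. The thalamus level (green squares) and the neuron level move Ywhaz and Ywhah toward 0. The blood cell level moves both away from 0, to -0.52 and -0.53. With the dopamine neuron level they stand at -0.38 and -0.48.

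Summed over the 6 members, the family total was 3613 ± 187 FPKM on fructose (SD, n = 6) and 4191 ± 192 FPKM on chow (SD, n = 7). It ranged from 3341 to 3874 FPKM in fructose rats and from 3933 to 4432 FPKM in chow rats, and the diets did not overlap. Ywhaz and Ywhah together averaged 1641 FPKM on fructose and 2089 FPKM on chow, and this difference was 77.5% of that in the total. The other 4 members together averaged 1972 ± 62.9 FPKM on fructose (SD, n = 6) and 2102 ± 24.8 FPKM on chow (SD, n = 7). The family made up 0.628% of all FPKM on fructose and 0.715% on chow. The total is a description, with no test, since the members were chosen with results known.

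The shares of the isoforms in this total are free of any scaling of a whole library. Ywhaz made up 18.4% ± 0.773 of the family FPKM on fructose (SD, n = 6) and 20.4% ± 0.818 on chow (SD, n = 7), and its ranges in the diets were apart. Ywhah made up 27.0% ± 1.30 on fructose and 29.3% ± 1.95 on chow, with 2 of 6 fructose rats below all chow rats. Ywhaq made up 11.8% ± 0.540 on fructose and 10.1% ± 0.652 on chow, again with the ranges apart, although its level differed by 0.80%. The total holds Ywhaz, on which the family was selected, so a member with a flat level gains share as the total falls. The shares are a description and were not tested.

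Ywhae made up 19.1% ± 1.43 on fructose and 17.2% ± 0.751 on chow. Its share was above all chow rats in 5 of 6 fructose rats, and in fructose replicate 1 it was 16.7%. Ywhab made up 11.4% ± 0.358 on fructose and 10.9985% ± 0.671 on chow, and Ywhag 12.4% ± 0.716 on fructose and 11.9% ± 1.04 on chow, with broad overlap in both. The extremes were fructose replicate 2, with 17.2% Ywhaz and 12.6% Ywhaq, and chow replicate 2, with 21.9% Ywhaz and 9.06% Ywhaq.

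**Figure D3:**
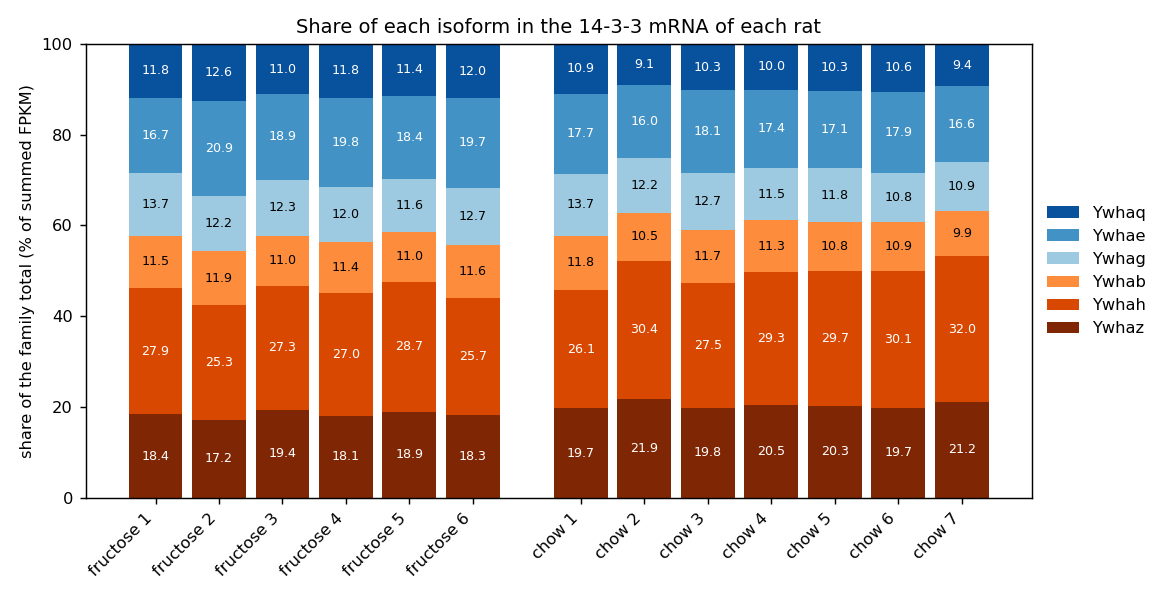
Share of each isoform in the summed FPKM of the 6 genes, as a percentage, with 1 bar per rat and the 6 fructose rats to the left of the 7 chow rats. The lowest block, Ywhaz, is 17.2% to 19.4% in fructose rats and 19.7% to 21.9% in chow rats, and the top block, Ywhaq, is 11.03% to 12.6% in fructose rats and 9.06% to 10.9% in chow rats.

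Ratios between members in the same rat need no scaling either. Ywhab over Ywhaq was 0.974, 0.944, 0.997, 0.961, 0.967 and 0.972 in fructose replicates 1 to 6, against 1.08, 1.16, 1.14, 1.122, 1.05, 1.03 and 1.06 in chow replicates 1 to 7. It was below 1 in all 6 fructose rats and above 1 in all 7 chow rats. Ywhaz over Ywhaq ranged from 1.36 to 1.76 in fructose rats and from 1.80 to 2.41 in chow rats, without overlap. Ywhaz over Ywhah, in contrast, averaged 0.682 ± 0.0249 on fructose (SD, n = 6) and 0.700 ± 0.0355 on chow (SD, n = 7), and the diets overlapped. These ratios were not tested, since they rest on the same contrast of the diets.

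The members did not vary among rats in the same way. Within diets, Ywhah spread the most, with a coefficient of variation of 9.79% on fructose and 10.98% on chow, and Ywhaz had 7.90% on fructose and 8.24% on chow. Ywhab spread less, at 4.07% on fructose and 2.33% on chow, and Ywhaq had 4.92% on fructose and 4.01% on chow. After the mean of each diet was subtracted, Ywhaz and Ywhah went up and down together over the 13 rats (Pearson r = 0.92 of log2(FPKM + 0.5), given as a description). Among 8983 other genes that averaged 5 FPKM or more, Ywhah ranked 36th in likeness to Ywhaz and Ywhaz ranked 28th in likeness to Ywhah.

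Within each diet this pair held too, with r = 0.94 over the 6 fructose rats and r = 0.91 over the 7 chow rats. Ywhag and Ywhae went opposite ways, with r = -0.75 over the 13 rats, -0.69 within fructose and -0.95 within chow. Ywhab was most like Ywhaq among the members (r = 0.65 over the 13 rats), with r = 0.94 within fructose and 0.14 within chow. Ywhaz with Ywhab, Ywhae or Ywhaq lay between -0.13 and 0.06 over the 13 rats, but the signs differed between diets. With Ywhab r was 0.43 within fructose and -0.45 within chow. With Ywhae it was -0.15 and 0.13, and with Ywhaq 0.14 and -0.40, in the same order. These rats share the library preparation and the table's scaling, which touch all genes of a rat at once.

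**Figure D4:**
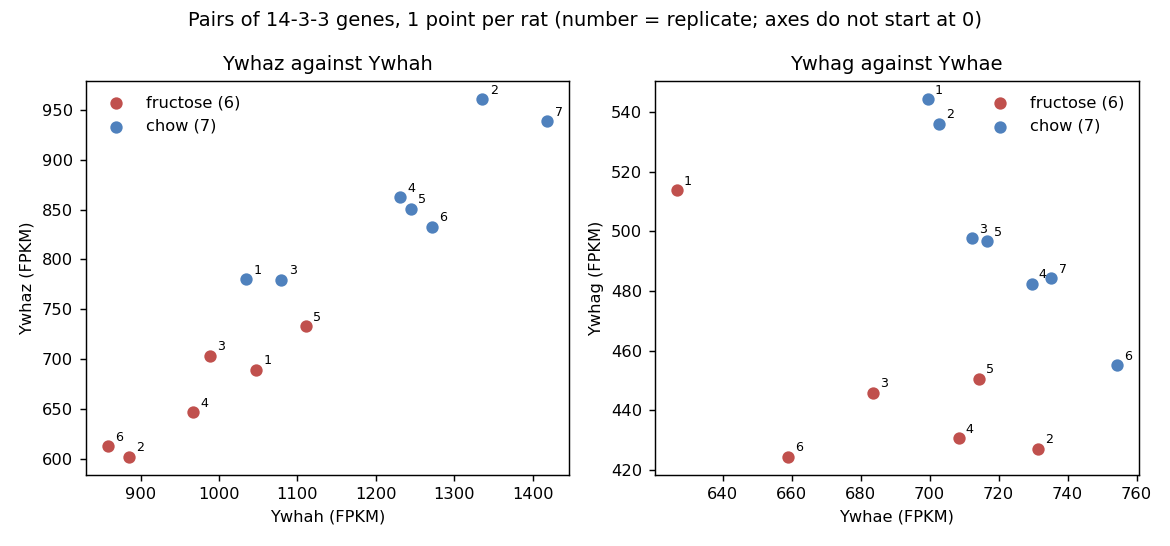
FPKM of 2 pairs of members, 1 point per rat with the replicate number beside it. Ywhaz follows Ywhah over both diets, with fructose rats at the lower left, and Ywhag is highest in the rat with the least Ywhae within each diet.

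By the same measure, the genes most like Ywhaz were Kcna4, a voltage-gated potassium channel (r = 0.954), LRRTM1, a synaptic adhesion protein (r = 0.952), Wasf1, an actin regulator of the WAVE complex (r = 0.951), Creg1 (r = 0.949) and Clec11a (r = 0.946). Those most like Ywhah were Ckb, brain creatine kinase (r = 0.967), Nrn1, neuritin (r = 0.966), and Necab3 (r = 0.958). Among the genes like Ywhaz, itself selected as lower on fructose, Kcna4, LRRTM1, Wasf1 and Creg1 were also called lower, beside 2.27% of all genes tested. Their log2 fold changes lay between -1.02 and -0.37 (limma adjusted p = 0.0276 to 0.0389), and Clec11a did not pass. Among the genes like Ywhah, none of Ckb, Nrn1 and Necab3 passed, and the log2 fold change of Ckb was -0.04 (limma adjusted p = 0.811).

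The other members had other neighbours. Ywhab was most like Slc18a2, the vesicular monoamine transporter (r = 0.889), Fxr1 (r = 0.872) and Mgat2 (r = 0.868), although Slc18a2 rose on fructose by 1.52 on the log2 scale (limma adjusted p = 0.000376). Ywhag was most like Nrcam, a neuronal adhesion molecule (r = 0.916), Ythdf3 (r = 0.900) and Spry4 (r = 0.898). Ywhae was most like the ribosomal protein gene Rpl18 (r = 0.956), the proteasome subunit Psmc2 (r = 0.954) and Sirt5 (r = 0.952), and Ywhaq was most like Golga7 (r = 0.929), Ebpl (r = 0.921) and Tmeff2 (r = 0.916). These were the highest by this measure, with predicted symbols passed over, and were not tested.

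Most genes of known 14-3-3 clients were not called. Of 57 client genes listed, 47 were tested, of which 2 rose and 3 fell (10.6% called, beside 3.94% of all genes tested), and the median log2 fold change was -0.04. The 3 that fell were Gabbr1, a GABA-B receptor subunit, Rgs3, a regulator of G protein signalling, and Rims1, a scaffold of the presynaptic active zone. Gabbr1 averaged 369 ± 24.8 FPKM on fructose (SD, n = 6) and 446 ± 34.8 FPKM on chow (SD, n = 7), a log2 fold change of -0.27 ± 0.06 (limma adjusted p = 0.0276). It was lower in 6 of 6 fructose rats than in every chow rat, as were 0.727% of all genes tested. Rgs3 averaged 31.7 ± 11.4 FPKM on fructose and 64.7 ± 20.3 FPKM on chow (-1.02 ± 0.24, limma adjusted p = 0.0361, 3 of 6 fructose rats below every chow rat), and Rims1 15.5 ± 2.09 FPKM on fructose and 21.2 ± 3.39 FPKM on chow (-0.44 ± 0.11, limma adjusted p = 0.0389, 5 of 6).

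The clients that rose were Th and Mdm4. Th, tyrosine hydroxylase, the enzyme from which the family has its gene symbols, averaged 125 ± 46.4 FPKM on fructose and 22.1 ± 5.03 FPKM on chow (2.40 ± 0.24, limma adjusted p = 0.000189). In Th 6 of 6 fructose rats stood above every chow rat, a pattern that 0.879% of all genes tested showed. Th is also 1 of the 14 tested markers of midbrain dopamine neurons, of which 13 rose. Tph2, the tryptophan hydroxylase of serotonin neurons, was under the filter, at 0.281 FPKM on fructose and 0.315 FPKM on chow. Mdm4, an inhibitor of p53, averaged 13.96 ± 1.88 FPKM on fructose and 10.8 ± 1.22 FPKM on chow (0.35 ± 0.09, limma adjusted p = 0.0452, 4 of 6 fructose rats above every chow rat).

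By role, 1 of 6 tested clients in MAPK signalling fell, 1 of 16 of cell death and transcription rose and 0 of 10 of insulin and mTOR signalling passed. Of 15 neuronal clients 1 rose and 2 fell, beside 1.66% of all genes higher and 2.27% lower. In these lists 3, 2, 0 and 9 clients, in this order, stood at an unadjusted p under 0.05 (limma). Over all 47 tested clients 14 did, beside 19.2% of all genes. Of 25 tested kinases that phosphorylate 14-3-3 binding sites 2 fell and 0 rose, with a median of -0.06, beside 2.27% of all genes lower, and 4 stood at an unadjusted p under 0.05 (limma), beside 19.2% of all genes. The 2 kinases that fell were Mark4, a kinase of microtubule-associated proteins (-0.40 ± 0.10, limma adjusted p = 0.0394), and Pak1, a kinase of the cytoskeleton (-0.40 ± 0.10, limma adjusted p = 0.0428), each with 3 of 6 fructose rats below every chow rat.

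Calls over the whole table varied with the rat left out, from 0.701% to 7.24% of the 11837 genes, beside 3.94% with all 13 rats. With any of chow replicates 2, 4, 5 and 7 or fructose replicates 2, 3, 4 and 6 left out, 0.701% to 2.85% of all genes and 1 member, Ywhaz, were called. Leaving out any of chow replicates 2, 4 and 7 or fructose replicates 2, 4 and 6 left 1 client called of the 5, and leaving out chow replicate 3 or 5 left 2. Th kept its call in 13 of 13 such fits, Gabbr1 in 7, Rgs3 in 5, Rims1 in 4 and Mdm4 in 2. No kinase was called with any of chow replicates 2, 3, 4, 5 and 7 or fructose replicates 2, 3, 4 and 6 left out, although 3 to 5 stood at an unadjusted p under 0.05 (limma), and leaving out fructose replicate 1 left 1.

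Markers of neighbouring tissue and of some other cells differed between the diets. The marker lists were chosen with earlier results of these data known. The thalamus lies just above the hypothalamus. Of its 18 tested markers 13 fell and 1 rose on fructose, beside 2.27% of all genes lower and 1.66% higher. Their summed level was 658 to 1192 FPKM in fructose rats and 821 to 1859 FPKM in chow rats, and 0 of the 18 with a row were at 0 in all rats. The mean log2 level of the list was lowest in fructose replicate 2 (3.36) and highest in chow replicates 2 and 7 (6.06 and 5.88), the same rats that had the least and the most Ywhaz.

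Within each diet Ywhaz followed this level, with r = 0.95 (exact permutation p = 0.0139) and Spearman rho = 0.89 (exact p = 0.0333) over the 6 fructose rats and r = 0.90 (exact permutation p = 0.00536) and rho = 0.86 (exact p = 0.0238) over the 7 chow rats. Without the 2 rats farthest from the median level r was 0.88 and 0.91 in these diets. For Ywhah r was 0.85 (exact permutation p = 0.0361) and rho 0.83 (exact p = 0.0583) over the 6 fructose rats, and r was 0.86 (exact permutation p = 0.0145) and rho 0.75 (exact p = 0.0663) over the 7 chow rats, and 0.71 and 0.75 without the 2 farthest. Of the 12 relations computed, 6 genes in 2 diets, the adjusted p for r was 0.0579 at the lowest and that for rho 0.199, so none passed after adjustment. For Ywhaq r was 0.03 over the 6 fructose rats and -0.56 over the 7 chow rats (exact permutation p = 0.942 and 0.188). Ywhab, although called lower, had r = 0.34 over the fructose rats and -0.49 over the chow rats (exact permutation p = 0.497 and 0.246). Ywhag, not called, had r = 0.63 and -0.16 in this order (exact permutation p = 0.157 and 0.751). Ywhae, not called, had r = -0.40 and 0.16 (exact permutation p = 0.431 and 0.737). The relation was looked at after the values were seen.

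With the thalamus list level as a covariate, the diet difference of Ywhaz was -0.17 ± 0.06 (limma adjusted p = 0.434) and that of Ywhah -0.093 ± 0.078 (limma adjusted p = 0.849), whereas that of Ywhab was -0.15 ± 0.06 (limma adjusted p = 0.450), close to its value without it. In that fit 0.253% of all genes were called.

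**Figure D5:**
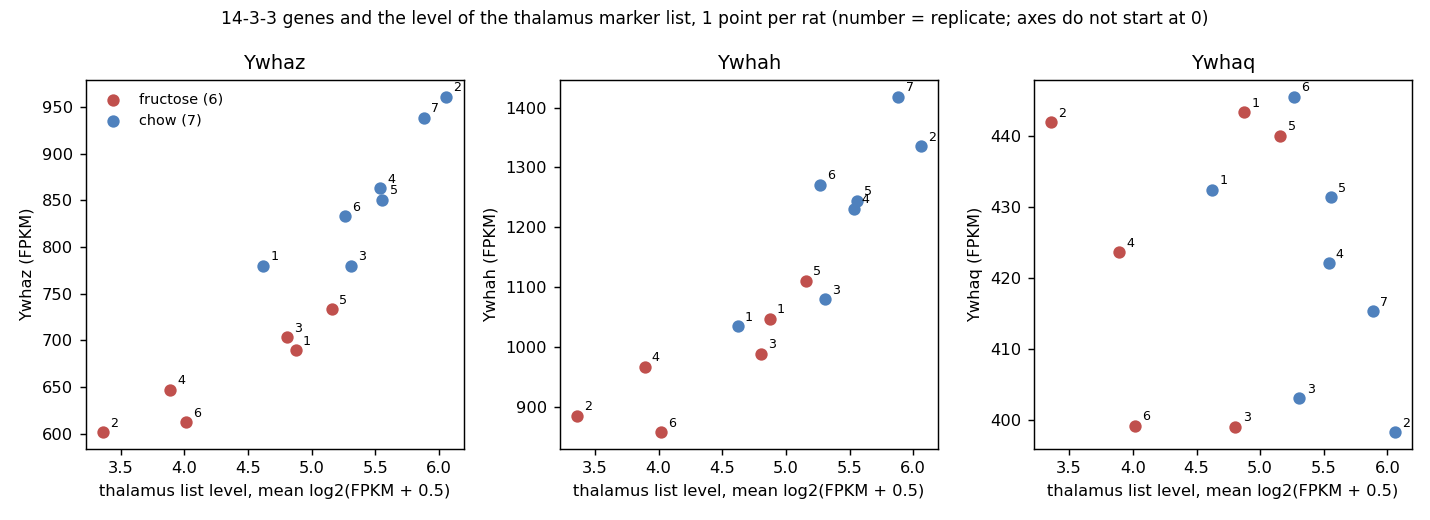
FPKM of Ywhaz, Ywhah and Ywhaq against the mean log2(FPKM + 0.5) of the thalamus markers, 1 point per rat with the replicate number beside it. Ywhaz and Ywhah go up with the thalamus level in both diets, and Ywhaq does not. Ywhab, Ywhag and Ywhae are not drawn.

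Of 14 tested markers of midbrain dopamine neurons 13 rose and 0 fell. For this and the lists below, 1.66% of all genes were called higher and 2.27% lower. The summed level of the dopamine neuron list was 254 to 666 FPKM in fructose rats and 110.2 to 150.1 FPKM in chow rats, with 0 at 0 in all rats. Of 5 tested blood cell markers 4 rose, with a summed level of 495 to 2217 FPKM in fructose rats and 238 to 615 FPKM in chow rats and 0 of 7 at 0. Of 7 tested markers of meninges and fibroblasts 5 rose, with a summed level of the list of 28.8 to 78.3 FPKM in fructose rats and 20.5 to 33.9 FPKM in chow rats, with Col1a2 at 0 in all rats. Of 7 tested astrocyte markers 2 rose, Gfap and Aqp4, and the summed level of the 7 was 2422 to 2762 FPKM in fructose rats and 2127 to 2521 FPKM in chow rats and 0 of 7 at 0. The part of the meningeal and astrocyte markers in the lower 14-3-3 levels was not tested.

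General neuron markers gave 0 calls of 12 tested (limma, 3 at an unadjusted p under 0.05), with a summed level of 2931 to 3448 FPKM in fructose rats and 2906 to 3825 FPKM in chow rats and 0 at 0. With their level as a covariate the difference of Ywhaz was -0.29 ± 0.07 (limma adjusted p = 0.111) and that of Ywhah -0.24 ± 0.09 (adjusted p = 0.304). With the blood cell level Ywhaz stood at -0.52 ± 0.11 and passed (limma adjusted p = 0.0328). The dopamine neuron level parted the diets without overlap, and with it Ywhaz stood at -0.38 ± 0.20 (limma adjusted p = 0.713). In that fit 0 of all 11837 genes were called, and 2 of the 6 members stood at an unadjusted p under 0.05 (limma), so the lost call says nothing of these genes in particular. The microglia, oligodendrocyte and endothelial lists gave 0 calls of 8, 8 and 7 tested, with 2, 1 and 3 at an unadjusted p under 0.05 (limma). Of all genes tested 19.2% stood at an unadjusted p under 0.05.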

How the data were processed

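RNA of whole hypothalamus was measured in 13 rats. The values are FPKM that the authors deposited in 1 table with 1 column per rat. STAR 2.3.0e, Cufflinks 2.1.1 and Cuffdiff with the rat build rn5 are named, per the submitters' processing notes, while their settings, and whether libraries were scaled to each other, are unstated in the sources used here. FPKM from Cufflinks divides reads among similar transcripts, and annotated processed copies exist for Ywhaz (2), Ywhah (1), Ywhag (1) and Ywhaq (5) in RefSeq's GRCr8 annotation, so some reads of these genes may be shared.

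Depth is unknown. The value of 1 read relative to chow replicate 1, from low FPKM values, lay roughly between 0.866 and 1.22, and precision rests on the spread between rats. Replicates were numbered in accession order, and the p-values measure the spread between these rats. Chow replicates 1 and 2 share the first number of their titles, whose meaning the labels do not state, so whether they come from 1 litter or cage is unknown. No first number occurs in both diets, so whatever it marks cannot be told apart from diet.

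Values were analysed as log2(FPKM + 0.5), which understates the change of low genes. The 11837 genes that averaged 0.5 FPKM or more were fitted in R 4.3.3 by limma 3.58.1 (moderated by empirical Bayes with an intensity trend, two-sided), with Benjamini-Hochberg adjustment over all of them and a call at an adjusted p under 0.05. Exact two-sided permutation tests used the 1716 splits of the rats into 6 and 7. The script was tested on simulated data. Of 197 list symbols 180 had a row. The level of a list averages the log2 values of its tested genes in a rat. The members and lists were chosen with earlier results of these data known. Genes named are the members, every called client or kinase with Th and Tph2 (1 further gene of this rule is not reported here), and the 3 genes (5 for Ywhaz) most like each member within diets among those averaging 5 FPKM or more, passing over predicted symbols. Other genes named are list members chosen after their values were seen. Alternatives were pseudocounts of 0.1 and 1, other filters, scaling by quantiles or by median ratios, robust empirical Bayes, array weights, 4 marker lists as covariates and each rat left out.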

Additional observations from a re-analysis of the deposited data

Results flagged for a closer look

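Among 26 groups of 6 or 7 rats looked at (6 levels, 6 shares and the family total in each diet), 1 held a rat that stood apart by the gap to its nearest neighbour. Ywhag was 514 FPKM in fructose replicate 1, while the next highest fructose rat had 451 FPKM, a gap of 0.708 of the group's range. Chance gives about 1 such group in 20, and the 26 overlap, since levels, shares and total come from the same rats. The same rat had the lowest Ywhae of all 13, at 627 FPKM.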

How the results depend on the processing

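No paired analysis was possible because replicate numbers were given in accession order and pair no rats. With 1 rat left out the difference lay between -0.40 and -0.34 for Ywhaz, -0.37 and -0.30 for Ywhah, -0.18 and -0.14 for Ywhab, -0.20 and -0.13 for Ywhag, -0.09 and -0.05 for Ywhae, and -0.0022 and 0.029 for Ywhaq, 1 to 4 members were called, 1 to 6 clients and 0 to 3 kinases. Ywhaq was below 0 when chow replicate 2 (-0.0022), or the first (-0.0018) or second (-0.00085) of the fructose rats, was left out, and with the thalamus (-0.014), dopamine neuron (-0.22) or neuron level (-0.012) as a covariate, and was not called in any of them. The difference in the family total lay between -631 and -524 FPKM with 1 rat left out, and was -496 FPKM after quantile normalization.

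Calls were lost with covariates in Ywhaz (thalamus -0.17, dopamine neurons -0.38, neurons -0.29), Ywhah (-0.093, -0.48 and -0.24, and blood -0.53) and Ywhab (-0.15, -0.33 and -0.17, and blood -0.10). Without a filter Ywhah was not called (-0.33, limma adjusted p = 0.0544), nor was Ywhab after quantile normalization (-0.15, adjusted p = 0.0731), and with array weights Ywhag was called (-0.17, adjusted p = 0.0431), where 8.61% of all genes were called, beside 3.94%. The thalamus, dopamine neuron, blood and neuron levels left 0, 0, 1 and 0 members called (2, 2, 2 and 3 at an unadjusted p under 0.05, limma), 1, 0, 3 and 1 clients and 0, 0, 0 and 0 kinases, and no filter left 3 clients and 0 kinases, and quantile normalization 1 kinase. Of all genes these 4 covariates left 0.253%, 0%, 1.54% and 0.321% called, beside 3.94% without one. The cause of these losses was not tested. Where 0 clients or kinases were called, 1 to 4 stood at an unadjusted p under 0.05. Pseudocounts, median-ratio scaling, robust empirical Bayes and the filter at 2 FPKM kept the calls of all 6 members as they were. The total with Sfn was not run.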
